A study of Mus musculus with 6 samples.

Results

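The disease-associated microglia (DAM) genes are a set of 10 genes, Spp1, Lgals3, Gpnmb, Apoe, Trem2, Tyrobp, Cst7, Lpl, Itgax and Clec7a, whose RNA is high in microglia that surround lesions and dying cells. They were looked up by gene name in a table of 41386 genes of mouse hippocampus, and 9 of the 10 were found. Itgax was not named in the table. An unnamed row whose database text gives the Itgax protein is described separately and is not counted among the 9. The mice were 56-day-old male C57BL/6 animals of wild type (C57BL/6J in the methods of the study). In the ischemia/reperfusion (I/R) group, a filament occluded the middle cerebral artery for 1.5 h, and the artery was then reopened for 24 h. The sham group had the operation without the occlusion. Each group had 3 RNA-seq libraries, and each library was a pool of 3 hippocampi from the operated side, so replicate error here is that of pools, not of single animals.

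Microglia are the resident macrophages of the brain, and at rest they express a set of homeostatic genes such as P2ry12 and Tmem119. In the DAM state, known from plaques, demyelination and ageing, these genes fall and genes of phagocytosis, lysosomes and lipid uptake rise. The receptor TREM2 binds lipids and lipoproteins, APOE among them, and signals through the adaptor TYROBP and the kinase SYK, and the later part of the DAM state is known to depend on it. Several of these genes are also used by other cells: Apoe is made by astrocytes, Lpl by neurons and vascular cells, and Spp1, Lgals3 and Gpnmb by macrophages that enter from blood.

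The 6 libraries held between 37493042 and 44788547 counts. Groups did not mix, with Spearman correlations between libraries of 0.979 to 0.994 within groups and 0.931 to 0.971 between them. I/R replicate 1 stood apart from the other I/R libraries in several marker lists, and the summed choroid plexus markers were low in I/R replicate 3 and sham replicate 1 (35.8 and 39.0 CPM, against 1602 to 4441 CPM in the other 4 libraries). Fold changes of the members without I/R replicate 1 are therefore given beside the values of all libraries. A fit with the choroid plexus level as a covariate left 7 members higher and 1 lower, as in the fit without it. Over all 18569 genes tested, the fit with the covariate gave 3830 higher and 3490 lower, against 4054 and 3702 without it.

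GAGGAA is the core site of PU.1, a transcription factor that macrophages and microglia require. TGANTCA is a loose form of the site of AP-1, a factor that responds to stress, with the middle base left free. The sequences before the start sites of 4 genes of the set are shown first. These hold a whole match to either site within the last 120 bases before their start. Each is taken from the RefSeq promoter table on GRCm38.p6 and reads 5′ to 3′ in the direction of the gene, and capitals mark matches to GAGGAA (or TTCCTC, the same site on the other strand) and to TGANTCA.
Spp1, chr5:104434991-104435110, plus strand: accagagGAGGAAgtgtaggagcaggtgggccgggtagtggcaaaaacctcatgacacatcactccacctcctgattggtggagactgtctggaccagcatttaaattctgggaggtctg
Trem2, chr17:48346281-48346400, plus strand: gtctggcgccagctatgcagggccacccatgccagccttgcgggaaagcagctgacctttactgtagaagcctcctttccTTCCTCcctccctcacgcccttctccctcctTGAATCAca
Clec7a, chr6:129472780-129472899, minus strand: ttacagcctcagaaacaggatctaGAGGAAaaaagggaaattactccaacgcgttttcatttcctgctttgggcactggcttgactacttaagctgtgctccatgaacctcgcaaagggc
Itgax, chr7:128129430-128129549, plus strand: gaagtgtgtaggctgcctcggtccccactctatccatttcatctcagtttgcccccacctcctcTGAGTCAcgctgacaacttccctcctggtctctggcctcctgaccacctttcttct

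The motif search covered both strands of 300 bases around each start, 250 before it and 50 after it, for the 8 of the 10 genes, Itgax included, that had an entry. GAGGAA was held by 4 of the 8 (Spp1, Apoe, Trem2 and Clec7a) and by 31.3% of the 27025 genes with such a window. The longer site GAGGAAGT, which contains GAGGAA, was held by Spp1, where it begins 113 bases before the start, and by 3.69% of all genes. TGANTCA, with its middle base free, was held by 4 of the 8 (Trem2, Itgax, Cst7 and Gpnmb), against 8.97% of all genes. The match read TGACTCA in Gpnmb and TGAGTCA in Itgax, but TGAATCA in Trem2 and TGATTCA in Cst7. These forms were not counted apart. The match begins 9 bases before the start in Trem2, 56 before it in Itgax, 6 before it in Cst7 and 9 after it in Gpnmb. The E-box CACGTG and the M-box CATGTG, which factors of the MITF/TFE family can bind, were each held by 0 of the 8, and by 8.09% and 15.9% of all genes. These are matches of letters, with no binding measured.

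Of the 9 members, 7 rose after I/R, 1 fell and 1 did not pass the test. Counts were tested with edgeR's quasi-likelihood test over the whole table, and a call needed a Benjamini-Hochberg adjusted p below 0.05 with a change of more than 1.2 times. Over all 18569 genes tested 41.8% were called, 21.8% higher and 19.9% lower. The log2 fold changes (I/R over sham) of the members had a median of 3.02, and those of all tested genes a median of 0.03. In all 9 members the ranges of the groups were apart, with I/R higher in 8, and this held for 57.4% of all tested genes. At this size, 3 libraries against 3, an exact permutation test cannot give a two-sided p under 0.1, which each member reached. A rise in bulk tissue does not tell more cells of a type from more RNA per cell.

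**Figure D1:**
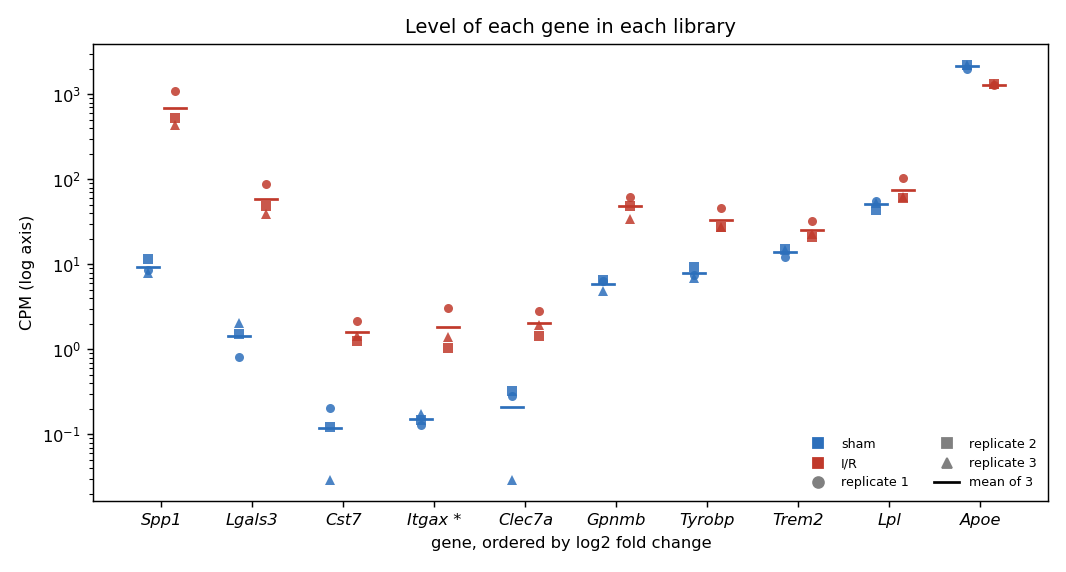
Level of each gene in each library, in CPM (counts scaled to library size) on a log axis, with genes ordered by log2 fold change; blue marks are sham, red marks I/R, the symbol gives the replicate and the line the mean of 3 libraries. The 2 groups are apart in every gene, Apoe is the one with I/R below sham, and I/R replicate 1 (circle) is the highest I/R library in all but Apoe. The asterisk marks Itgax, found by database text and not by name.

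Among the secreted members, Spp1 and Lgals3 had the largest changes. Spp1 (chr5:103194303-103200232 on the BALB/cJ assembly that the table uses, plus strand) encodes osteopontin, a secreted ligand of integrins and CD44. Its level was 1082, 532 and 431 CPM in I/R replicates 1, 2 and 3, against 8.58, 11.7 and 7.96 CPM in the sham replicates. Every I/R library was thus far above every sham library, and replicate 1 was the highest, at 2.51 times the lowest I/R library. The rise was 72.3-fold, which is 6.17 ± 0.41 (standard error, SE) as a log2 fold change (adjusted p = 0.000215, edgeR). Without I/R replicate 1 it was 5.67 (edgeR adjusted p = 1.07e-05). A second gene overlaps Spp1 on the same strand in the table, with at most 65 counts in a library, and 11.6% of the 50-base stretches of Spp1 transcripts are also in GENCODE transcripts of another gene, Gm42793. Whether reads shared in these ways were counted is not known.

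Lgals3 (chr14:39928090-39949549, plus strand) encodes galectin-3, a lectin that binds sugars on cell surfaces and on damaged lysosomes. Its counts were 4042, 1962 and 1583 in I/R replicates 1, 2 and 3, against 32, 61 and 70 in the sham replicates. That is 88.8, 49.1 and 39.6 CPM against 0.820, 1.50 and 2.03 CPM. The sham libraries spread by 2.48 times and the I/R libraries by 2.24 times, both far less than the distance between the groups. The rise was 41.0-fold, or 5.36 on the log2 scale (SE 0.42, edgeR adjusted p = 0.00028), and 4.94 without I/R replicate 1. Of all tested genes, 99.6% had a lower log2 fold change than Spp1 and 99.4% a lower one than Lgals3.

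Receptors that bind osteopontin were mostly higher. Of 9 tested receptor chains, 6 rose, 1 fell and 2 did not pass, with a median log2 fold change of 0.78, where 21.8% of all tested genes were called higher and 19.9% lower. Cd44, a receptor for hyaluronan and osteopontin, rose from 91 to 184 counts in sham to 2720 to 4970 counts in I/R, by 4.53 on the log2 scale (SE 0.26, edgeR adjusted p = 0.000169). The integrin chains Itga5 and Itgb1, which pair as a fibronectin receptor, rose by 4.22 (SE 0.37) and 1.44 (SE 0.13). Itga4, an integrin chain of leukocytes, went the other way and fell by 1.40 on the log2 scale (SE 0.24, edgeR adjusted p = 0.00304), from 1420 to 1991 counts in sham to 529 to 950 counts in I/R. The other chains called higher were Itgav, Itga9 and Itgb3, which were named here after their values were seen.

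The receptor complex of TREM2 and TYROBP rose unequally. Trem2 (chr17:48248712-48256458, plus strand) encodes the lipid-sensing receptor. Its level was 32.1, 20.8 and 22.5 CPM in I/R replicates 1, 2 and 3, against 12.2, 15.3 and 14.6 CPM in sham. The groups were close, since the lowest I/R library was 20.8 CPM and the highest sham library 15.3 CPM. The rise was 1.79-fold, 0.84 on the log2 scale (SE 0.18, edgeR adjusted p = 0.0082), and 0.62 without I/R replicate 1. Of all tested genes, 84.8% had a lower log2 fold change.

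Tyrobp (chr7:28796083-28799919, plus strand) encodes the adaptor DAP12, which carries the signalling motif for TREM2 and for other myeloid receptors. Its level was 46.1, 27.5 and 27.2 CPM in I/R, against 7.51, 9.28 and 6.92 CPM in sham. The groups lay well apart, and the rise was 4.25-fold, 2.09 on the log2 scale (SE 0.23, edgeR adjusted p = 0.000736), and 1.79 without I/R replicate 1. The log2 ratio of Tyrobp to Trem2 counts within a library, a comparison chosen after the values were seen, was 0.52, 0.41 and 0.27 in I/R replicates 1, 2 and 3, against -0.70, -0.72 and -1.08 in sham. Each I/R library was above each sham library. The size of such a ratio carries the lengths of both genes, and per length, on FPKM, Tyrobp was above Trem2 in all 6 libraries. The difference between groups was 1.23 (1.11 to 1.30 when 1 library was left out, exact two-sided permutation p = 0.1, as low as it can go here).

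Downstream partners of this receptor pair and of dectin-1 were mostly higher. Of 13 tested signalling genes, 11 rose and 2 did not pass, with a median log2 fold change of 0.98, and 9 rose without I/R replicate 1. With all libraries, 21.8% of all tested genes were called higher and 19.9% lower. Pik3ap1, an adaptor for PI3-kinase, rose by 2.28 (SE 0.31, edgeR adjusted p = 0.00137), and Vav1, a guanine nucleotide exchange factor, by 2.22 (SE 0.28, edgeR adjusted p = 0.00112). The kinase Btk rose by 2.01 (SE 0.27), and Blnk, an adaptor downstream of SYK, by 1.91 (SE 0.22). Those that did not pass were Hcst, at 0.80 (SE 0.49), and Plcg2, at 0.63 (SE 0.23). These were named after their values were seen. Hcst encodes DAP10, a second adaptor that can pair with TREM2, and had 13 to 26 counts in I/R, against 6 to 14 in sham.

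Clec7a (chr6:127680008-127691305, minus strand) encodes dectin-1, a receptor for fungal glucans that signals through SYK and CARD9 and serves as a marker of DAM. It was rare, with 127, 57 and 77 counts in I/R replicates 1, 2 and 3, against 11, 13 and 1 in sham. All I/R libraries were above all sham libraries, and sham replicate 3 was under the floor of 3 counts. Its log2 fold change was 3.24 (SE 0.61, edgeR adjusted p = 0.00451). The 95% confidence interval was wide, from 1.84 to 4.63, and the value without I/R replicate 1 was 2.94.

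Among members of the lysosome and the endosomal membrane, Gpnmb and Cst7 rose. Gpnmb (chr6:46167862-46202479, plus strand) encodes a transmembrane glycoprotein of phagocytes and pigment cells. Its level was 61.5, 48.2 and 34.2 CPM in I/R, against 6.43, 6.47 and 4.82 CPM in sham. That is an 8.10-fold rise, or 3.02 on the log2 scale (SE 0.23, edgeR adjusted p = 0.00028). Its SE was small beside that of the rarer members, and the value was 2.79 without I/R replicate 1.

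Cst7 (chr2:149195480-149204009, plus strand) encodes cystatin F, an inhibitor of lysosomal cysteine proteases. It had 97, 50 and 57 counts in I/R, against 8, 5 and 1 in sham. The counts in sham were near or under the floor of 3, and every I/R library was at least 50. The log2 fold change was 3.69 (SE 0.56, edgeR adjusted p = 0.002) with a 95% confidence interval of 2.40 to 4.98, and it was 3.43 without I/R replicate 1.

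Of the lipid genes Apoe and Lpl, Apoe fell, while Lpl was higher in I/R but did not pass the test. Apoe (chr7:17551365-17554422, minus strand) encodes the main lipid carrier of the brain. Its level was 1270, 1315 and 1325 CPM in I/R, against 2007, 2197 and 2227 CPM in sham. Libraries of each group were close together, the highest I/R library being 1.04 times the lowest, and I/R replicate 1 was the lowest of all. Apoe fell by 0.72 on the log2 scale (SE 0.13, edgeR adjusted p = 0.00425) to 0.608 of the sham level. Of all tested genes, 11.8% had a lower log2 fold change. In all 17 other settings it stayed below 0, at -0.77 to -0.46, and it was -0.70 without I/R replicate 1.

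Lpl (chr8:66443605-66470796, plus strand) encodes lipoprotein lipase, which splits triglycerides of lipoproteins. Its level was 103, 59.8 and 62.2 CPM in I/R, against 55.3, 44.2 and 52.7 CPM in sham. I/R replicates 2 and 3 were only just above the highest sham library. The log2 fold change was 0.56 (SE 0.21, edgeR adjusted p = 0.0614) with a 95% confidence interval of 0.08 to 1.04, so Lpl did not pass after adjustment, and its unadjusted p was 0.0273. Without I/R replicate 1 it was 0.26 and passed (edgeR adjusted p = 0.0353), only just over the fold rule of 1.2 times. Across all settings the value ranged from 0.26 to 0.83 and the adjusted p from 0.0215 to 0.199, so the call depends on the setting.

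**Figure D2:**
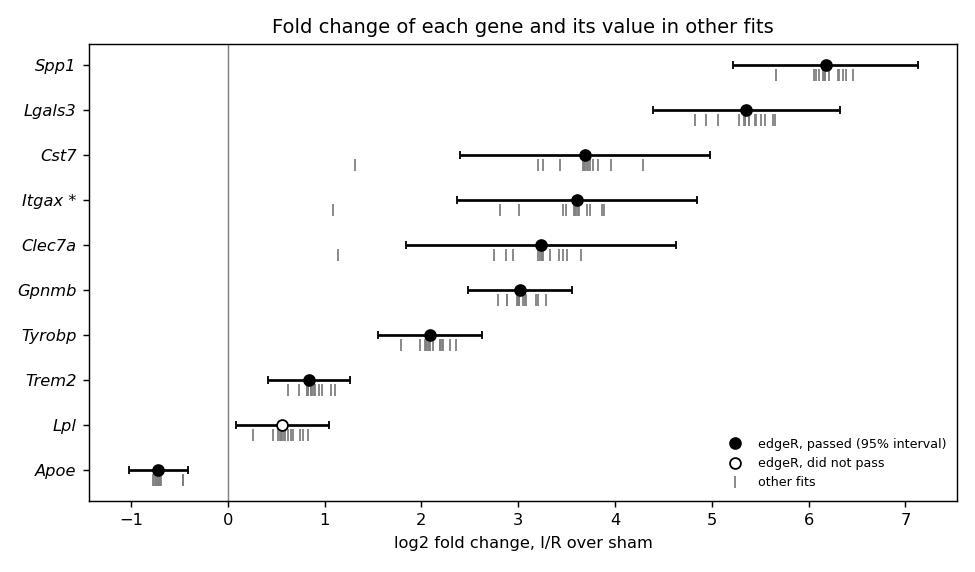
Log2 fold change of each gene, I/R over sham (x axis), with its 95% confidence interval (bar); filled circles passed the edgeR test and the open circle did not, and grey ticks are the values of the other fits, including 6 fits with 1 library left out. Spp1 and Lgals3 stand at 6.17 and 5.36, Apoe alone is below 0, and the interval of Lpl runs from 0.08 to 1.04. The lowest ticks of Cst7, Itgax and Clec7a, at 1.31, 1.09 and 1.14, are from log2(FPKM + 1), which understates changes of rare genes.

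Other genes that take up, move or store lipid were mixed. Of 15 tested genes of lipoprotein and lipid handling, 6 rose, 2 fell and 7 did not pass, with a median log2 fold change of 0.40. Among all tested genes, 21.8% were called higher and 19.9% lower. Plin2, a coat protein of lipid droplets, rose from 175 to 212 counts in sham to 2377 to 6450 counts in I/R, by 4.12 on the log2 scale (SE 0.37, edgeR adjusted p = 0.000375). Ch25h, which makes 25-hydroxycholesterol, rose by 4.03 (SE 0.34), and Angptl4, an inhibitor of lipoprotein lipase, by 2.30 (SE 0.24). Vldlr, a receptor for APOE-rich lipoproteins, fell by 0.38 on the log2 scale (SE 0.09), and Lmf1, a factor for the folding of lipases, fell by 0.62 (SE 0.16). With scaling by library size alone none of the list fell, and without I/R replicate 1 the number that fell was 4.

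Levels can be compared between genes only per length, on the deposited FPKM (values divided by gene length and library total). In sham the order by mean FPKM was Apoe at 2270, Lpl at 20.8, Tyrobp at 13.3, Spp1 at 8.10, Trem2 at 6.89, Gpnmb at 3.01, Lgals3 at 1.49, Clec7a at 0.129 and Cst7 at 0.110. The ranges of Spp1 and Trem2 overlapped, as did those of Clec7a and Cst7, so these neighbours were not apart. In I/R the order was Apoe at 1646, Spp1 at 711, Lgals3 at 73.3, Tyrobp at 68.2, Lpl at 37.0, Gpnmb at 29.4, Trem2 at 14.8, Cst7 at 1.79 and Clec7a at 1.52. Here Lgals3 and Tyrobp, Lpl and Gpnmb, and Cst7 and Clec7a overlapped.

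Spp1 thus moved from the fourth place to the second, and Lgals3 from the seventh to the third, while Apoe stayed first. Of the summed FPKM of the 9 members, Apoe held 97.6% to 97.8% in the sham libraries and 53.0% to 73.2% in the I/R libraries. The share of Spp1 went from 0.284% to 0.423% in sham to 19.3% to 36.7% in I/R. FPKM here rests on lengths shorter than those in the table for 7 of the 9 members, and it was scaled by library totals, so fold changes on it differ from those above: Apoe was at -0.46 on log2(FPKM + 1).

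**Figure D3:**
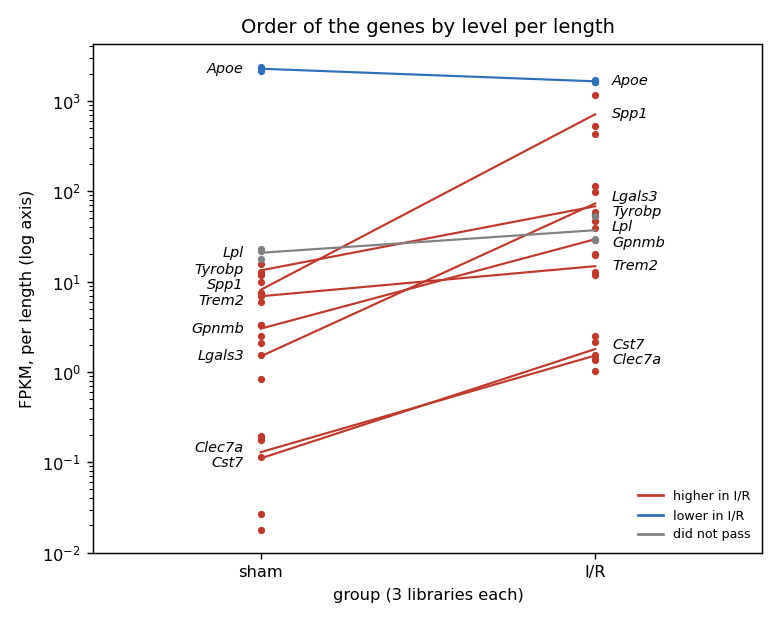
FPKM (y axis, log scale) of the 9 members found by name in the 3 sham libraries (left) and the 3 I/R libraries (right), with lines between the group means; red lines are genes that rose, blue the one that fell, grey the one that did not pass. Apoe stays on top at 2270 and 1646, and the steepest lines are those of Spp1 and Lgals3.

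The row that carries Itgax only by its database text (chr7:128634892-128655981, plus strand) lies next to Itgam and to a row annotated as Itgad, as Itgax does in the mouse genome. Itgax encodes the integrin chain CD11c, a marker both of DAM and of dendritic cells. The row had 141, 42 and 56 counts in I/R, against 5, 6 and 6 in sham, so the groups were apart and I/R replicate 1 was 2.95 times the lowest I/R library. Its log2 fold change was 3.61 (SE 0.54, edgeR adjusted p = 0.00188), and 3.01 without I/R replicate 1. Itgax shares 8.02% of its 50-base stretches with Itgad, which makes this value uncertain. Of the 4 dendritic cell markers tested, Flt3 fell by 1.57 and Clec9a by 1.70 on the log2 scale, and Batf3 at 0.79 (SE 0.29) and Zbtb46 at 0.33 (SE 0.14) did not pass. Their summed level, with the 3 untested genes, was 16.0 to 17.8 CPM in I/R, against 19.6 to 20.2 CPM in sham, and Xcr1, a defining gene of one dendritic subset, had 0 to 2 counts in every library. Ccr7, a gene of migrating dendritic cells that was too rare to be tested and is named after its values were seen, had 30, 17 and 6 counts in I/R, against 1, 1 and 0 in sham.

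Most of the wider DAM signature rose as well. Of 23 other tested signature genes, 16 rose, 2 fell and 5 did not pass, with a median log2 fold change of 1.30. The shares over all tested genes were 21.8% higher and 19.9% lower. The chemokines Ccl4 and Ccl3 rose by 5.99 (SE 0.65) and 5.23 (SE 0.37), from 1 to 18 and 9 to 14 counts in sham to 363 to 879 and 353 to 784 counts in I/R. Ccl6, another chemokine, rose by 3.16 (SE 0.25), and Cd68, a lysosomal glycoprotein of macrophages, by 2.78 (SE 0.25). Ank, a membrane protein that exports pyrophosphate, fell by 0.68 on the log2 scale (SE 0.13, edgeR adjusted p = 0.00441), and Timp2, an inhibitor of matrix metalloproteinases, by 0.45 (SE 0.11, edgeR adjusted p = 0.0119). Without I/R replicate 1, 15 rose and 2 fell.

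Homeostatic microglia genes moved in both directions. Of 16 tested, 5 rose, 6 fell and 5 did not pass, with a median log2 fold change of 0.04. Over all tested genes the shares were 21.8% higher and 19.9% lower. Siglech, a lectin of resting microglia, fell by 1.91 on the log2 scale (SE 0.18, edgeR adjusted p = 0.000435). The ADP receptor P2ry12 fell by 1.67 (SE 0.26) and Selplg, the ligand of P-selectin, by 1.45 (SE 0.16). P2ry12 had 231, 334 and 437 counts in I/R, against 973, 951 and 1003 in sham, so I/R replicate 1, the highest library for most DAM members, was the lowest here. Among the 5 that rose were Fcrls, a microglial Fc receptor-like gene, by 2.22 (SE 0.24), the ectonucleotidase Entpd1 by 1.25 (SE 0.23) and the fractalkine receptor Cx3cr1 by 0.48 (SE 0.17). Without I/R replicate 1, 4 rose and 7 fell, and with scaling by library size alone, 8 rose and 4 fell.

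Each member was also set against genes that microglia express broadly, within the same library. Its counts were divided by the summed counts of 6 such genes, among them Csf1r, Aif1, C1qa, C1qb and C1qc. What border macrophages and monocytes add to this sum was not tested. This sum was itself higher in I/R, at 539 to 795 CPM against 271 to 289 CPM in sham, and 5 of its 6 genes rose. Relative to it, Spp1 was higher in I/R by 4.94 on the log2 scale, Lgals3 by 4.22, Cst7 by 2.97, Clec7a by 2.70, Itgax by 2.34, Gpnmb by 1.85 and Tyrobp by 0.91. The groups were apart in each of these ratios (exact two-sided permutation p = 0.1 each, as low as it can go here). Sham replicate 3 held 1 count each of Clec7a and Cst7, and without it their differences were 1.57 and 2.15, while that of Cst7 was 3.60 without sham replicate 1. Without I/R replicate 1 the differences of the 10 genes kept their direction, from 4.73 for Spp1 to -1.66 for Apoe.

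Trem2 was lower relative to the 6 genes, with log2 ratios of -4.63, -4.70 and -4.63 in I/R, against -4.47, -4.24 and -4.29 in sham, a difference of -0.32 (exact two-sided permutation p = 0.1). Lpl was lower by the same measure, with a difference of -0.62, and Apoe had one of -1.86. The complement genes, which rose by 1.48 to 1.75, weigh most in the sum. Against Csf1r alone, which did not pass the test (log2 fold change 0.23, SE 0.13), Trem2 and Lpl changed sign to 0.60 and 0.30, while Apoe stayed lower at -0.94. The direction of Trem2 and Lpl relative to microglial genes therefore depends on which gene is the reference, and that of the other members did not with either reference.

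**Figure D4:**
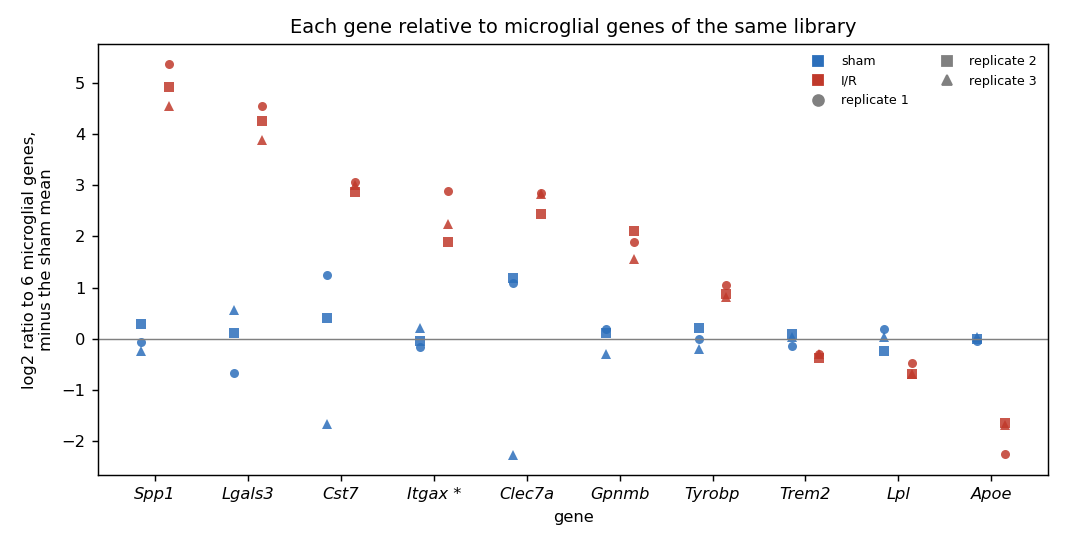
Log2 ratio of each gene's counts to the summed counts of 6 microglial genes in the same library, minus the mean of the sham libraries (y axis); blue marks are sham, red marks I/R, and the symbol gives the replicate. The I/R marks lie above sham from Spp1 to Tyrobp and below it in Trem2, Lpl and Apoe, with differences from 4.94 to -1.86; the asterisk marks Itgax, found by database text.

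The I/R pools differed in level for most members. In 8 of the 9, I/R replicate 1 was the highest of the 3 I/R libraries, as it was in 41.8% of all tested genes and in 73.1% of the genes called higher. The ratio of replicate 1 to the mean of replicates 2 and 3 had a median of 1.67 over the members, 0.998 over all tested genes and 1.25 over the genes called higher. For single members it ran from 0.962 in Apoe to 2.25 in Spp1. Without replicate 1 the same 7 members rose and Apoe fell. Lpl also passed, at a log2 fold change of 0.26, only just over the fold rule.

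Several lists of markers of other cell types moved as well. In the same fit, 21.8% of all tested genes were called higher and 19.9% lower. All 5 tested monocyte markers rose, with summed levels of 198 to 338 CPM in I/R, against 125 to 130 CPM in sham. Most of this sum was Fn1 and Vcan, matrix genes that other cells of the brain also make, with means of 193 and 39.9 CPM in I/R and 95.2 and 28.9 CPM in sham, and their rises were 1.02 (SE 0.21) and 0.46 (SE 0.10). Chil3 rose by 5.85 (SE 1.06) and Ccr2, the receptor that brings monocytes from blood, by 3.27 (SE 0.71), with 83, 23 and 87 counts of Ccr2 in I/R, against 8, 9 and 1 in sham. S100a4 had 6 to 9 counts in I/R, against 0 in every sham library, and Plac8 17, 0 and 12 against 0. Of 7 border macrophage markers 5 rose, with sums of 28.0 to 52.6 CPM in I/R, against 10.1 to 12.2 CPM in sham, led by Pf4 at 3.49 (SE 0.46) and Lyve1 at 2.67 (SE 0.25).

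Neutrophil markers were highest in I/R replicate 1, at a sum of 43.7 CPM against 12.6 and 12.3 CPM in the other I/R libraries and 5.84 to 7.20 CPM in sham. Of 6 tested, 4 rose, led by S100a8 at 4.66 (SE 0.80) and S100a9 at 3.78 (SE 0.90). The defining genes Ly6g and Ngp had 1 and 5 counts in I/R replicate 1 and 0 in every other library, and Camp and Ltf had at most 5 counts anywhere. Cxcr2, a chemokine receptor of neutrophils that was not tested, had 87, 10 and 9 counts in I/R and 0 in every sham library. All 7 endothelial and pericyte markers rose, led by Pecam1 at 1.92 (SE 0.21) and Cdh5 at 1.91 (SE 0.23). Their sums were 330 to 559 CPM in I/R, against 205 to 210 CPM in sham.

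Astrocyte markers summed to 4345 to 4608 CPM in I/R, against 4340 to 4693 CPM in sham, and of 7 tested 3 rose and 3 fell. Gfap rose by 2.31 (SE 0.17) and the glutamate transporter Slc1a2 fell by 0.96 on the log2 scale (SE 0.20). Of 8 markers of hippocampal neurons, 7 fell, with sums of 348 to 698 CPM in I/R, against 1142 to 1171 CPM in sham, the lowest in I/R replicate 1. Tdo2 fell by 2.53 (SE 0.50) and Dsp by 2.50 (SE 0.36) on the log2 scale. Of 7 oligodendrocyte markers 1 rose (Opalin, by 0.91) and 2 fell, with sums of 5939 to 6963 CPM in I/R, against 7116 to 8720 CPM in sham. Of 8 choroid plexus markers 1 fell (Sostdc1, by 1.92). The part of these cell types in the results on the DAM genes was not tested.

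**Figure D5:**
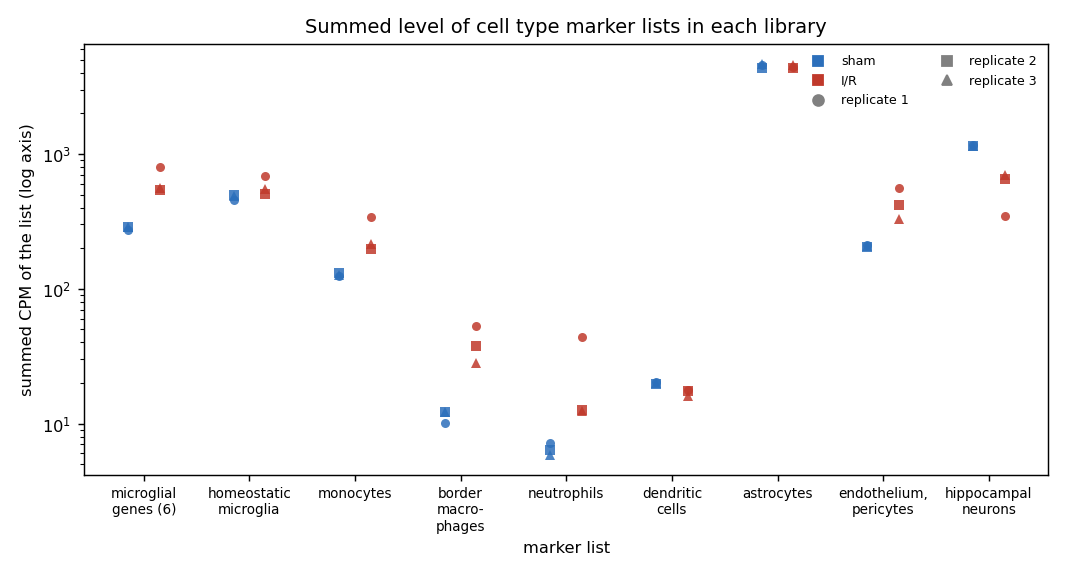
Summed CPM of the genes of each marker list in each library (y axis, log scale), with blue marks for sham, red marks for I/R and the symbol for the replicate. Monocyte, border macrophage, neutrophil and endothelial sums are higher in I/R and the neuronal sum is lower, each at its extreme in I/R replicate 1, while astrocyte sums overlap.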

How the data were processed

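Per the study's methods, total RNA of pooled hippocampi was sequenced, reads were aligned with TopHat2 to an Ensembl genome, and reads per gene were counted with HTSeq. The deposited counts are these raw numbers, and the deposited FPKM are the authors' values per gene length and library total. The submitters' processing notes name Bowtie 0.12.2 and the build mm8, but 40303 of the 41386 gene identifiers are of Ensembl's BALB/cJ annotation, whose coordinates are given, so reads of C57BL/6 mice were set against genes of another strain. Whether counting used strand is not given in the sources used here. The table also holds the authors' own fold changes, p-values and group means, which were not used.

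The members and lists were chosen with earlier results of these data known. Counts were tested in edgeR 4.0.16 (R 4.3.3) with filterByExpr, TMM scaling and the robust quasi-likelihood F-test without covariates, adjusted by Benjamini-Hochberg over 18569 genes. The SE is the size of the log2 fold change over the square root of F. CPM use the library size after TMM scaling. The floor is 3 counts, and floors and intervals cover counting error or the spread between pools only. Tests of all lists used this same fit, with no test of a list. DESeq2 1.42.0 and limma 3.58.1 on log2(FPKM + 1) and log2(FPKM + 0.1) were alternatives.

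All members were named. From the 4 lists of partners and signature genes and from the homeostatic list, up to 4 called genes with the largest log2 fold change were named, and those against the majority. From lists of other cell types, 2 called genes and defining genes near the floor were named. Of 166 list genes 161 were named in the table. Values of some list genes that the rule names are not reported here. Replicate numbers were not used to pair the libraries in the main fit. P-values measure the spread between pools.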

Additional observations from a re-analysis of the deposited data

How the results depend on the processing

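Over 17 alternatives, 6 to 9 of the 9 members were called, and 5 to 8 of them higher. Over all genes, 2760 to 9047 were called, and 1893 to 6334 were called higher. The lowest number of members called higher, 5, came from the filter for 10 counts in every library, which left Cst7 and Clec7a untested. Spp1, Lgals3, Gpnmb and Tyrobp kept their direction and call in all 17, and Cst7, Itgax and Clec7a in the 16 that tested them, since the filter that asked for 10 counts or more from each library removed these rare genes. At a fold over 2, Apoe at -0.72 and Trem2 at 0.84 were no longer called, the count of members that fell was 0, the signalling genes that rose were 6, the lipid genes and the other signature genes that fell were 0 each, and the homeostatic genes were 2 higher and 3 lower, all by the rule's construction. Over all genes that rule gave 2760 calls, 1893 higher and 867 lower. Lpl, not called in the main fit, was called with library size scaling at 0.83, with the DESeq2 Wald test at 0.55, with limma on log2(FPKM + 1) at 0.75 and on log2(FPKM + 0.1) at 0.77, and by unadjusted p at 0.56. With 1 library left out it ran from 0.26 to 0.68 and was called without any 1 of the I/R replicates. Scaling moved the balance of all genes: with library size alone 6334 were higher and 2027 lower, with log2(FPKM + 1) 6110 and 2041, and with log2(FPKM + 0.1) 6301 and 2044. The median log2 fold change of all genes was 0.28 with library size alone, 0.18 and 0.26 on the FPKM scales and 0.03 with TMM. In each of these 3 settings 8 homeostatic genes were higher, 0 lipid genes and 1 other signature gene lower. With 1 library left out, genes lower over all genes ranged from 2426 (without sham replicate 2) to 3966, lipid genes that fell from 0 (leaving out sham replicate 3) to 4 (leaving out I/R replicate 1), and other signature genes that fell from 1 (without sham replicate 2) to 2. Relative to Csf1r alone, the differences were 5.86 for Spp1, 5.13 for Lgals3, 3.25 for Itgax, 2.77 for Gpnmb, 1.83 for Tyrobp, 0.60 for Trem2, 0.30 for Lpl and -0.94 for Apoe, and from FPKM they were 0.69 for Tyrobp, -0.54 for Trem2 and -0.84 for Lpl. Where no construction is named, the cause was not tested.

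The labels give both groups replicate numbers 1 to 3. Deviations of same-numbered libraries from their group means correlated at -0.097, 0.056 and -0.184. Those of libraries with different numbers correlated at -0.171 to 0.267. The numbers thus gave no sign of pairing, but so few libraries cannot exclude it. With the number as a replicate block, 6332 genes were called and Lpl passed at 0.52 (edgeR adjusted p = 0.0335); no other member changed its call. Depth limits Clec7a, Cst7 and Itgax, whose sham libraries held 1 to 13 counts.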
